A study of Mus musculus with 10 samples.

Results

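CC chemokines are small secreted proteins, named for a pair of adjacent cysteines, that bind G protein-coupled receptors on leukocytes and direct their migration. Ccl2, Ccl7, Ccl8 and Ccl12 form the group of monocyte chemoattractant proteins, Ccl11 and Ccl24 are eotaxins that act on eosinophils through Ccr3, Ccl6 and Ccl9 are ligands of Ccr1, and Ccl17 and Ccl22 are ligands of Ccr4 on T cells. In adipose tissue, Ccl2 is known for the recruitment of macrophages, and eotaxins for the recruitment of eosinophils, which are a source of IL-4 there. The 10 ligands described here are Ccl2, Ccl6, Ccl7, Ccl8, Ccl9, Ccl11, Ccl12, Ccl17, Ccl22 and Ccl24, taken by their gene symbol from 18384 genes listed in the mRNA-seq data.

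The libraries were made from cultures of adipocyte precursors (APs) of the subcutaneous white adipose tissue of C57BL/6 J mice. The cells had been selected with magnetic beads against CD45, a protein of leukocytes, and CD31, a protein of endothelial cells, and then for SCA-1. The 3 control cultures are replicates 1 to 3, and in the 3 IL-4 cultures (replicates 4 to 6) the cytokine was added to the growth medium on the day after seeding, and cells were harvested after 4 days with it. The dose of IL-4, the age of the mice and the number of mice behind a culture are not given in the sources used here, and nothing says that cultures came from separate mice, so that p-values measure the spread between these cultures. Levels of different genes are compared in FPKM, which is per transcript length, and each gene is compared between groups in normalised counts, which are counts scaled to a common library size.

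The libraries held 28526782 to 29057787 expected counts each. Control replicate 3 and IL-4 replicate 6 held more reads of short transcripts than the other libraries of their groups, and the changes of the ligands are also given without both. Socs1, a feedback inhibitor that IL-4 induces through STAT6, rose with a log2 fold change of 3.19 ± 0.17 (SE, adjusted p = 3.41e-06), whereas the IL-4 receptor chain Il4ra (0.19 ± 0.06, adjusted p = 0.0378) and Stat6 (0.03 ± 0.06, adjusted p = 0.717) stayed within the fold threshold. Of 12 AP markers, 12 were tested, with a summed level of 6508 to 6843 FPKM in control and 9525 to 10226 FPKM in IL-4 cultures. Most of this sum, and of its difference between groups, came from the collagen chains Col1a1 and Col3a1. Their means went from 3307 to 3690 FPKM and from 2181 to 5001 FPKM with IL-4. Of the 12 markers, 4 were called higher with IL-4, Col3a1, the SCA-1 gene Ly6a, Cd34 and the fatty acid binding protein Fabp4. None was called lower (2 at an unadjusted p under 0.05, 0 by DESeq2). At any fold, 6 passed the adjusted p as higher and 2 as lower. The latter were Pdgfrb (-0.66 ± 0.10, adjusted p = 0.000989), which went from 189.8 to 106.6 FPKM, and Dlk1 (-0.67 ± 0.22, adjusted p = 0.0492). Markers of macrophages were also detected, although the cells had been selected against CD45. All 16 macrophage markers on the list used had reads, none of them was at 0 in a whole group, and their summed level was 4400 to 5764 FPKM in control and 1795 to 2401 FPKM in IL-4 cultures. Most of this sum, and of its difference between groups, came from Lyz2 (means of 2739 and 776.4 FPKM) and the complement genes C1qa, C1qb and C1qc. In such bulk samples, fewer cells of a type and less RNA per cell cannot be told apart.

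CC ligand mRNA was more abundant with IL-4, and most of the increase was in Ccl11, Ccl8 and Ccl6. The 10 ligands together had 328.5, 340.0 and 387.5 FPKM in the control cultures and 2134, 2140 and 2818 FPKM with IL-4. Calls were made by edgeR's quasi-likelihood test at an adjusted p under 0.05, and needed a log2 fold change beyond 1 as well. Of the 10 ligands, 8 had enough counts to be tested, 7 were called higher with IL-4 (Ccl6, Ccl7, Ccl8, Ccl9, Ccl11, Ccl12 and Ccl24) and 0 were called lower. Among all 14009 genes tested, 5.77% were called higher and 5.26% lower. The eighth, Ccl2, passed the adjusted p but not the fold threshold. At any fold, 8 of 8 passed the adjusted p in the higher direction, against 19.0% of all genes, and 0 passed it in the lower direction, against 18.4%, where edgeR at an unadjusted p under 0.05 and DESeq2 also had 0. In all 8, every IL-4 library lay above every control library, which held for 25.2% of the genes tested. The median log2 fold change was 2.53 over the 8 ligands and 0.00 over all genes tested. The ligands were chosen with earlier results of these data known, so that the shares of all genes are given for scale only. Ccl17 and Ccl22 had too few counts and are described by their counts below.

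**Figure D1:**
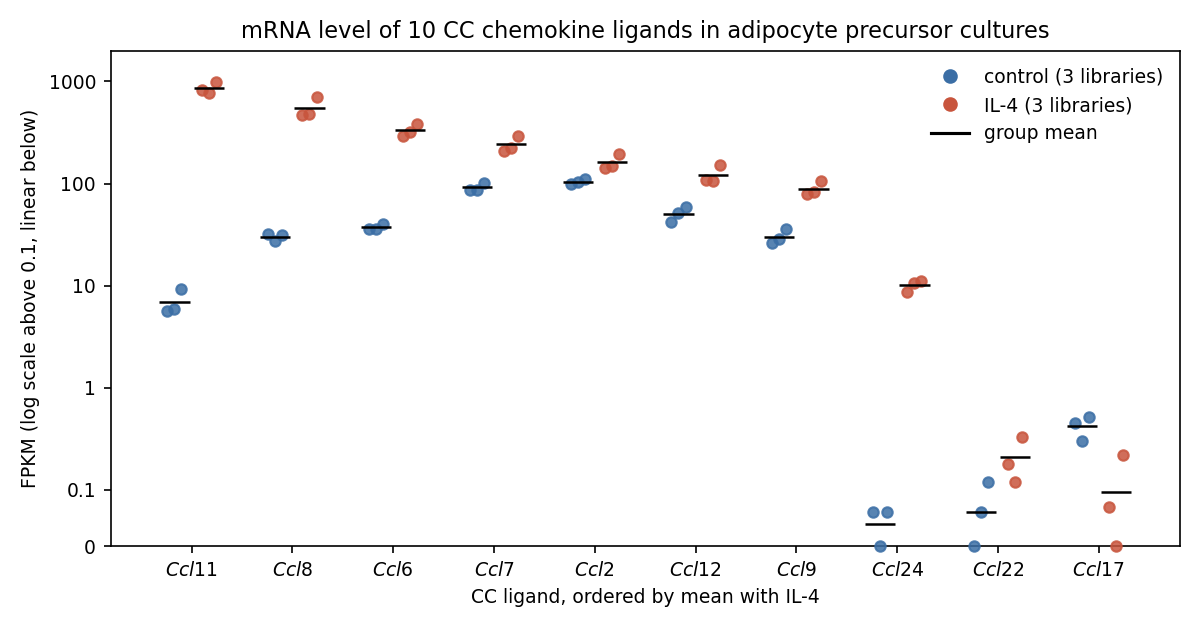
FPKM of the 10 CC ligands in each library, on an axis that is logarithmic above 0.1 and linear below, with control libraries on the left and IL-4 libraries on the right of each gene and lines at the group means. Ccl11 moved from a mean of 6.90 to 859.6 FPKM, while Ccl17 and Ccl22 stayed under 1 FPKM in all 6 libraries.

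The eotaxins changed most. Ccl11, also called eotaxin-1, had 153, 163.1 and 247.7 normalised counts in the control cultures and 25657, 24025 and 29620 with IL-4. Control replicate 3 was the highest of the controls, and no control library came near the IL-4 libraries. Its log2 fold change was 7.13 ± 0.20 (SE, adjusted p = 2.01e-07), a 140.5-fold difference. By mean FPKM, Ccl11 ranked 7743 among all genes in control cultures and 57 in IL-4 cultures, and its log2 fold change was number 25 from the top among the 14009 genes tested. Ccl24, also called eotaxin-2, had 2, 0 and 2 counts in the control cultures and 305, 374 and 393 counts with IL-4. All control libraries were therefore at or under 3 counts, the level taken as the floor of detection, and the IL-4 libraries were far above it. The groups differed with an adjusted p of 6.96e-07, and the ratio of the summed counts, scaled for library size, was 298.3 with a 95% exact binomial interval of 116.2 to 1097, which covers counting error only. Despite this ratio, the level of Ccl24 with IL-4 was 10.1 ± 1.27 FPKM (SD, n = 3), against 859.6 ± 107.4 FPKM for Ccl11.

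The monocyte chemoattractants were already abundant without IL-4 and changed to very different degrees. Ccl8, which in the mouse acts on Ccr8, had 383.1, 336.8 and 378.1 normalised counts in the control cultures and 6482, 6605 and 9443 with IL-4. IL-4 replicate 6 stood above the other two IL-4 libraries, and the groups were far apart. The log2 fold change of Ccl8 was 4.36 ± 0.17 (SE, adjusted p = 8.06e-07), a 20.5-fold difference. Ccl7, a ligand of Ccr2, had 1994, 1993 and 2316 normalised counts in control and 5476, 5757 and 7495 in IL-4 libraries. Its log2 fold change was 1.57 ± 0.13 (SE, adjusted p = 3.99e-05). Ccl12, which also acts through Ccr2, had 526.6, 661.2 and 735.5 normalised counts in control and 1570, 1539 and 2137 in IL-4 libraries, with a log2 fold change of 1.45 ± 0.16 (SE, adjusted p = 0.000243). For Ccl7 and Ccl12 alike, the lowest IL-4 library had more counts than the highest control library. Ccl2, the main ligand of Ccr2, had 1991, 2105 and 2175 normalised counts in control and 3201, 3411 and 4310 in IL-4 libraries. The groups of Ccl2 did not overlap, and its log2 fold change of 0.80 ± 0.11 (SE, adjusted p = 0.000757), a 1.74-fold difference, was the smallest of the 8 ligands tested.

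The Ccr1 ligands Ccl6 and Ccl9, both typical of macrophages and other myeloid cells, also rose. Ccl6 had 1332, 1332 and 1486 normalised counts in the control cultures and 12360, 13636 and 15744 with IL-4. All 3 IL-4 libraries were well above the controls, with a log2 fold change of 3.33 ± 0.11 (SE, adjusted p = 3.01e-07), a 10.1-fold difference. Ccl9 had 2096, 2307 and 2827 normalised counts in control and 7156, 7495 and 9297 in IL-4 libraries, and a log2 fold change of 1.73 ± 0.14 (SE, adjusted p = 3.50e-05). The expected counts of Ccl9 were whole numbers in 1 of 6 libraries, so that a part of its reads was shared with another gene. Those of the other 9 ligands, given to 2 decimals, were whole in all 6.

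The Ccr4 ligands were near the limit of detection. Ccl17 had 6, 4 and 7 counts in the control cultures and 1, 0 and 3 with IL-4, so that no IL-4 library was over the floor of 3 counts. The control libraries were the higher ones, and the ratio of the summed counts, IL-4 over control, was 0.262 (95% exact binomial interval 0.0641 to 0.803, counting error only). With no filter on low counts, edgeR gave it an adjusted p of 0.12 and DESeq2 one of 0.207. Ccl22 had 0, 3 and 6 counts in the control cultures and 9, 6 and 17 with IL-4, so that the highest control library and the lowest IL-4 library had the same count. The ratio for Ccl22 was 3.96 (interval 1.85 to 9.43), with an adjusted p of 0.0818 with no filter and 0.0828 from DESeq2. Neither ligand passed the threshold.

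The order of the ligands by level was different in the 2 groups. In control cultures the order by mean FPKM was Ccl2, Ccl7, Ccl12, Ccl6, Ccl9, Ccl8, Ccl11, Ccl17, Ccl22 and Ccl24, from 104.6 ± 5.0 FPKM for Ccl2 down to 6.90 ± 1.96 for Ccl11 (SD, n = 3) and less than 1 for the last 3. The ranges of Ccl2 and Ccl7, of Ccl6 and Ccl9, of Ccl9 and Ccl8, and of Ccl22 and Ccl24 overlapped, while other neighbours were apart in all libraries. With IL-4 the order was Ccl11, Ccl8, Ccl6, Ccl7, Ccl2, Ccl12, Ccl9, Ccl24, Ccl22 and Ccl17. Here the ranges of Ccl6 and Ccl7, of Ccl2 and Ccl12, and of Ccl22 and Ccl17 overlapped, although within each IL-4 library the order of these pairs was the same. Ccl8 had 547.6 ± 130.4 FPKM, Ccl6 332 ± 46.0, Ccl7 242 ± 46.4, Ccl2 161 ± 28.7, Ccl12 122 ± 25.4 and Ccl9 88.7 ± 14.4 with IL-4 (SD, n = 3).

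The make-up of the CC ligand pool, the summed FPKM of all 22 CC ligands listed, was different in the 2 groups, and by FPKM Ccl2 and Ccl7 led in control and Ccl11 and Ccl8 in IL-4 cultures. By expected counts, which are not scaled for transcript length, the order was different. Ccl9 led in control (23.9%, with Ccl7 at 20.97% and Ccl2 at 20.9%), and with IL-4 Ccl11 still led (38.9%), but Ccl6 (20.5%) and Ccl9 (11.7%) stood above Ccl8 (10.9%). Ccl2 held 26.9%, 27.4% and 24.9% of the pool in the control cultures and 6.55%, 6.95% and 6.85% with IL-4, although its own level was higher with IL-4. Ccl7 and Ccl12 likewise went from 23.1% ± 0.44 and 12.7% ± 1.25 to 10.2% ± 0.32 and 5.11% ± 0.21 (SD, n = 3). Ccl11 held 1.52%, 1.56% and 2.08% of the pool in control and 38.5%, 35.9% and 34.6% in IL-4 libraries. Ccl8 went from 7.62% ± 0.80 to 22.9% ± 1.54 and Ccl6 from 9.39% ± 0.27 to 14.0% ± 0.82 (SD, n = 3). Ccl9 went from 7.56% ± 0.51 to 3.74% ± 0.08, so that Ccl6 and Ccl9 together had 16.8% to 17.2% of the pool in control and 17.2% to 18.8% in IL-4 libraries. Ccl24 made up 0.428% ± 0.055 with IL-4. These shares describe a pool in which the members depend on each other, and they were not tested.

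**Figure D2:**
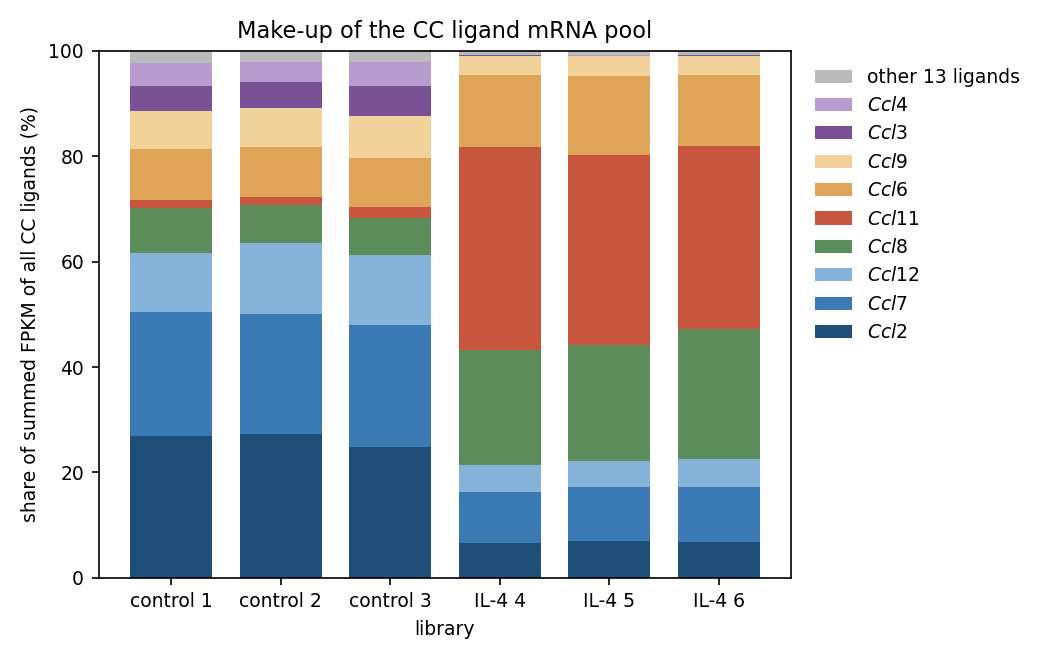
Share of each CC ligand in the summed FPKM of all CC ligands, in percent, as stacked bars for the 3 control and 3 IL-4 libraries. Ccl11 holds 1.52% to 2.08% of the pool in control libraries and 34.6% to 38.5% in IL-4 libraries, and Ccl3 and Ccl4 are no longer visible with IL-4.

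Ratios within a library do not depend on library size. The ratio of Ccl11 to Ccl2 in FPKM was 0.0564, 0.0569 and 0.0835 in the control cultures and 5.88, 5.17 and 5.05 with IL-4. The ratio of Ccl8 to Ccl12, genes that lie next to each other, was 0.610 ± 0.130 in control and 4.47 ± 0.15 in IL-4 cultures (SD, n = 3). That of Ccl6 to Ccl9, also neighbours, was 1.25 ± 0.12 and 3.76 ± 0.14. The ratio of Ccl7 to Ccl2 had little spread within a group, with 0.875, 0.828 and 0.931 in control and 1.495, 1.48 and 1.52 in IL-4 libraries.

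The positions of the members follow in part from their family, since other CC ligand genes lie in the same clusters. In the GRCm38 assembly, 7 of the 10 lie on chromosome 11, as do 11 of all 22 CC ligands listed. The genes there form clusters separated by 1345965 bases between Ccl1 and Ccl5. The first holds Ccl2 (82035577 to 82037452), Ccl7 (82045712 to 82047525), Ccl11 (82057832 to 82062955), Ccl12 (82101845 to 82103399) and Ccl8 (82115185 to 82116799), all on the forward strand and followed by Ccl1 on the reverse strand. The second holds Ccl9 (83572917 to 83578636) and Ccl6 (83587886 to 83593087) between Ccl5 on one side and Ccl3 and Ccl4 on the other. Ccl22 (94745684 to 94751388) and Ccl17 (94809380 to 94812038) are neighbours on chromosome 8, and Ccl24 (135569935 to 135573123) lies on chromosome 5. Changes were not uniform along a cluster. Ccl11, with a log2 fold change of 7.13, lies between Ccl7 (1.57) and Ccl12 (1.45). Ccl6, which rose by 3.33, is followed by Ccl3 and Ccl4, which fell. By the gene annotation in the deposited files, all 10 carry the term chemokine activity. All but Ccl2, 9 ligands, carry monocyte chemotaxis, neutrophil chemotaxis and lymphocyte chemotaxis. Only 3 (Ccl7, Ccl11 and Ccl24) carry eosinophil chemotaxis, and Ccl11 and Ccl24 are the only 2 listed genes with the term CCR3 chemokine receptor binding.

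**Figure D3:**
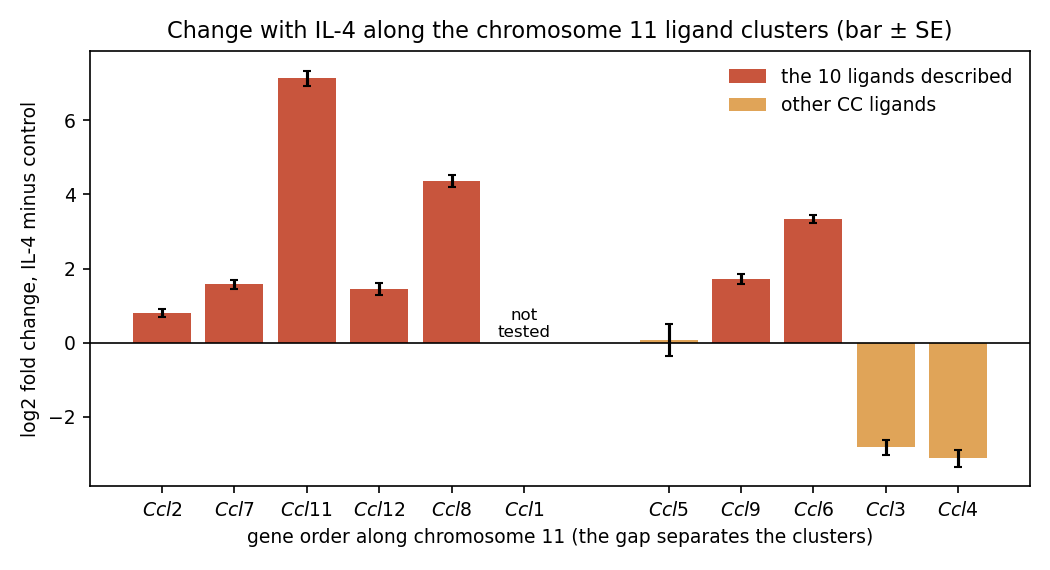
Log2 fold change, IL-4 minus control (bar ± SE, edgeR), of the CC ligands on chromosome 11 in gene order, with a gap between the clusters and no bar for Ccl1, which was not tested. Ccl11 (7.13) stands between Ccl7 (1.57) and Ccl12 (1.45), and the second cluster holds rises of Ccl9 and Ccl6 beside falls of Ccl3 and Ccl4.

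Promoter windows of 250 bases before to 50 bases after the start of transcription were taken from RefSeq (GRCm38.p6) for 6 of the 10 ligands, Ccl6, Ccl8, Ccl9, Ccl12, Ccl17 and Ccl22. They were searched on both strands for TTC followed after 4 bases by GAA, the spacing that STAT6 prefers, and TTC followed after 3 bases by GAA, the spacing of other STAT factors, which cannot start at the same base, and for the kappaB motif. The first was present in 6.95%, the second in 8.30% and the kappaB motif in 4.50% of all 32851 windows. None of the windows of the called ligands Ccl6, Ccl8, Ccl9 and Ccl12 held either STAT spacing, and that of Ccl22 held none of the 3 motifs. The matches found are shown, with the motif in capitals, since they are the only ones among these ligands. They lie on the forward strand of chromosome 8 for Ccl17 (chr8:94810289-94810318 and chr8:94810344-94810373) and on the reverse strand of chromosome 11 for Ccl9 (chr11:83578652-83578681), and a match is not evidence of binding. The start used for the window of Ccl17, base 94810453, lies 1073 bases inside the gene as annotated above, so that both of its matches are within the annotated gene, while the windows of the other 5 take the first base of the gene as the start.
Ccl17, 4 bases between: cgagtgaccaTTCTCTGGAAagccacaaac
Ccl17, 3 bases between: ttatctcaaaTTCTTTGAAtttctctagtc
Ccl9, kappaB: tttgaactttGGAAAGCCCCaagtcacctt
Ccl17, the only 1 of the 6 with a STAT spacing in its window, had 1, 0 and 3 counts with IL-4, as given above.

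None of the other CC ligands was called higher. Of 14 such ligands, 12 were listed and 6 were tested, of which 0 passed as higher (0 also at an unadjusted p under 0.05 in edgeR and by DESeq2) and 2 lower. The members were chosen with earlier results of these data known, so that the split from the other ligands is not an independent result. Over all CC ligands, 14 were tested, with 7 called higher, 2 called lower and a median log2 fold change of 1.12. Ccl3 and Ccl4, inflammatory ligands of the macrophage inflammatory protein group, had 18.2, 18.5 and 24.8 FPKM and 16.1, 14.3 and 20 FPKM in the control libraries, more than Ccl11 had there. In the IL-4 libraries Ccl3 had 2.17, 2.16 and 3.36 FPKM and Ccl4 had 1.49, 1.25 and 2.38 FPKM. Ccl3 fell by 2.82 ± 0.19 (adjusted p = 1.62e-05) and Ccl4 fell by 3.12 ± 0.22 (adjusted p = 1.96e-05) on the log2 scale (SE). The annotated genes overlap by 755 bases on opposite strands, and no source states that reads were counted by strand. The expected counts of Ccl3 and Ccl4 were whole numbers in all 6 libraries, so that no reads shared with another gene showed. The ratio of Ccl6 to Ccl3 in FPKM was 1.84 ± 0.18 in control and 133 ± 17.7 in IL-4 cultures (SD, n = 3). Ccl5, Ccl25, Ccl27a and Ccl28 did not pass the test, with log2 fold changes of 0.07 ± 0.43, 0.11 ± 0.16, 0.23 ± 0.14 and 0.28 ± 0.33 (SE). Ccl20 had 3, 4 and 7 counts in control and none in IL-4 libraries, at least 1.39-fold lower against a floor of 3 counts per library, and was too low to be tested. The remaining ligands listed, Ccl1, Ccl19, Ccl21a, Ccl21b and Ccl27b, had fewer than 10 counts in every library, and Ccl21c and Ccl26 were not listed.

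**Figure D4:**
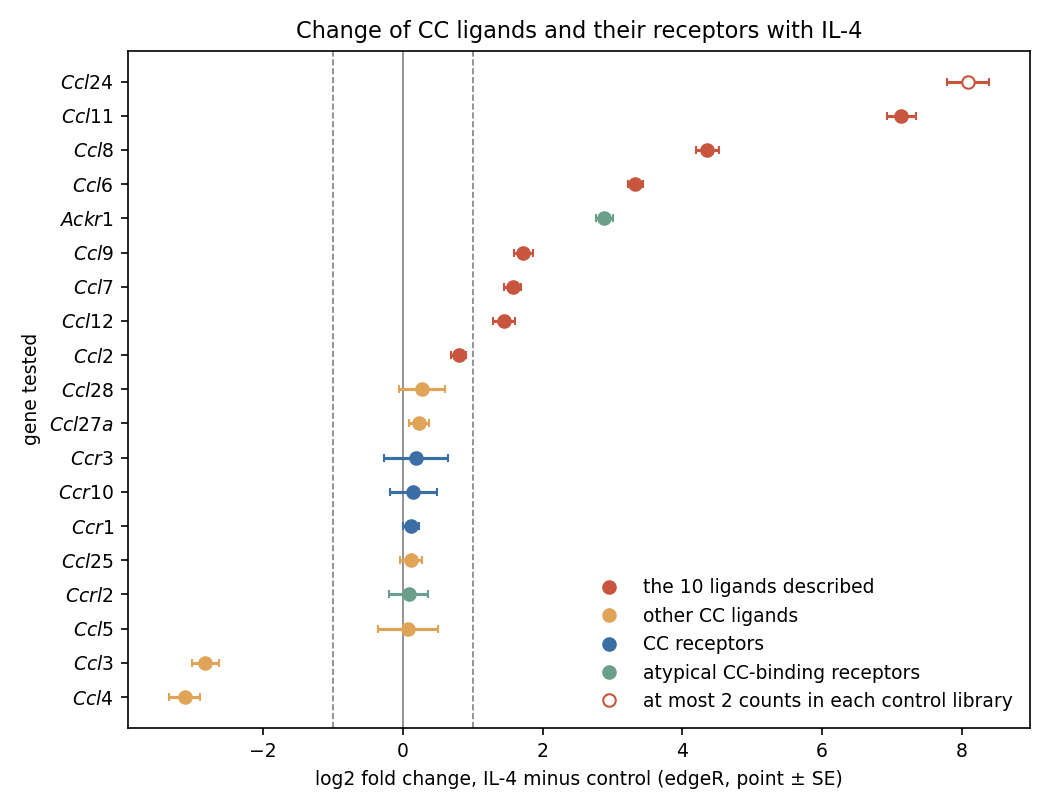
Log2 fold change, IL-4 minus control (point ± SE, edgeR), of the tested CC ligands and of the CC receptors and atypical receptors reported here, with dashed lines at the threshold of 1 in either direction and an open point for Ccl24, whose control libraries had at most 2 counts. The 10 ligands described include the 4 highest values, and Ccl3 and Ccl4 lie below the lower line.

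Ccr2 and Ccr3, receptors of the monocyte chemoattractants and eotaxins, had few reads in the cultures. Of the CC receptors tested, 0 were called higher (0 also at an unadjusted p under 0.05 in edgeR and by DESeq2). Ccr1, the receptor of Ccl6 and Ccl9, had 9.68 ± 1.53 FPKM in control and 9.29 ± 0.84 in IL-4 cultures (SD, n = 3), and a log2 fold change of 0.11 ± 0.11 (SE, adjusted p = 0.478). Ccr2, the receptor of Ccl2, Ccl7 and Ccl12, had 4 to 13 counts in the control and 4 to 6 in the IL-4 libraries. Ccr3, the receptor of Ccl11 and Ccl24, had 7 to 17 counts in the control and 6 to 17 in the IL-4 libraries (log2 fold change 0.19 ± 0.46, adjusted p = 0.78). Ccr10 was also tested and not called (0.15 ± 0.34), and Ccr4, Ccr6, Ccr7, Ccr8 and Ccr9 had fewer than 10 counts in every library. Of 4 atypical receptors, which bind chemokines without G protein signalling, 2 were tested, and Ackr1 was called higher, with 72.2, 65.3 and 81.6 normalised counts in control and 515.7, 499.6 and 608.1 in IL-4 libraries. Its log2 fold change was 2.89 ± 0.13 (SE, adjusted p = 1.42e-06).

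Of 12 genes that act downstream of chemokine receptors, 0 were called higher (2 at an unadjusted p under 0.05 in edgeR, 0 by DESeq2) and 4 lower. At any fold, 7 passed the adjusted p as lower and 2 as higher, Elmo1 (0.65 ± 0.08, adjusted p = 0.0003) and Gnai3 (0.19 ± 0.06, adjusted p = 0.0432). Those called lower were Arrb2, a beta-arrestin (-1.59), Pik3cg (-1.33) and Pik3r5 (-1.22), subunits of phosphoinositide 3-kinase gamma, and Rgs1 (-1.34), an inhibitor of G protein signalling. Of 4 proteases that cleave chemokines, 2 were called higher. Mmp2, which truncates Ccl7, had a log2 fold change of 1.44 ± 0.06 (SE, adjusted p = 1.18e-06) and Mmp12, a protease of macrophages, one of 2.90 ± 0.09 (SE, adjusted p = 3.01e-07). Of 17 chemokine ligands of the CXC, C and CX3C families, 9 were tested. Of these, 0 were called higher (2 at an unadjusted p under 0.05 in edgeR, 1 by DESeq2) and 6 lower. Those 2, Cxcl12 (0.67 ± 0.06, adjusted p = 4.56e-05) and Cxcl5 (0.78 ± 0.14, adjusted p = 0.00322), also passed the adjusted p but not the fold threshold. Cxcl12 went from 277.6 to 416.5 FPKM. Among the 6 called lower, Cxcl14 went from 40.1 to 7.20 FPKM (log2 fold change -2.30 ± 0.09), the platelet factor Pf4 from 24.7 to 9.41 FPKM (-1.21 ± 0.20) and the scavenger ligand Cxcl16 from 25.6 to 4.79 FPKM (-2.24 ± 0.12, SE).

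Genes of macrophages also changed with IL-4, with most markers lower and most genes of a list for IL-4-treated macrophages higher. Of the 16 macrophage markers, 16 were tested, 0 were called higher (2 at an unadjusted p under 0.05 in edgeR, 0 by DESeq2) and 7 lower, with a median log2 fold change of -0.97. At any fold, 14 passed the adjusted p as lower and 1 as higher. The latter was Mrc1, which went from 93.4 to 145.5 FPKM (0.815 ± 0.103, adjusted p = 0.000466). Lyz2, a lysozyme, went from 2739 to 776.4 FPKM and C1qa, a complement subunit, from 488.4 to 188.9 FPKM. The fractalkine receptor Cx3cr1 (-8.65 ± 0.18) and Aif1 (-4.43 ± 0.37, SE) had the lowest log2 fold changes of the list. Of 8 genes listed for IL-4-treated macrophages, 7 were tested, of which 5 were called higher and 1 lower. The list held Chil3, Retnla, Arg1, Clec10a, Mgl2, Cd163, Cd209a and Il1rn, and the first 5 of these were the ones called higher. The summed level of the 8 was 27.3 to 34.0 FPKM in control and 3490 to 4736 FPKM in IL-4 libraries. Most of the control sum came from Il1rn, the gene called lower, which went from 24.4 to 5.12 FPKM (-2.08 ± 0.06, SE). The highest levels with IL-4 were those of Chil3, a chitinase-like protein (1552 FPKM), Arg1, an arginase (1384 FPKM), and Retnla, a resistin-like protein (774.6 FPKM). In control these had means of 0.71, 2.42 and 0.483 FPKM. Markers of eosinophils, the target cells of Ccl11 and Ccl24, summed to 0.16 to 0.35 FPKM in control and 0.19 to 0.31 FPKM in IL-4 libraries, and Epx and Prg3 were not listed. Those of neutrophils summed to at most 0.58 FPKM. The part of macrophages or other cells in the levels of the ligands was not tested.

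Control replicate 3 and IL-4 replicate 6 stood apart from the other libraries of their groups. Among the 8 ligands tested, 6 were highest in control replicate 3 within the control group, and 8 of 8 were highest in IL-4 replicate 6 within the IL-4 group. Of all genes with a mean of at least 100 normalised counts, 43.0% and 45.1% were highest in these libraries. For the 703 such genes with transcripts under 1000 bases the shares were 88.1% and 98.4%. The median deviation of IL-4 replicate 6 from its group mean, on the log2 scale, was 0.32 for transcripts under 600 bases and -0.17 for those over 4000 bases, and that of control replicate 3 was 0.13 and -0.08. Of the 8 ligands tested, 4 have transcripts under 1000 bases. Among these, Ccl8 (517 bases), Ccl12 (537) and Ccl2 (806) deviated in IL-4 replicate 6 by 0.35, 0.31 and 0.26. Ccl9, with 3008 bases, deviated by 0.23 there and by 0.24 in control replicate 3, where genes of 2500 to 4000 bases deviated by -0.02 and 0.00. Ccl11 deviated by 0.43 in control replicate 3 and by 0.17 in IL-4 replicate 6.

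**Figure D5:**
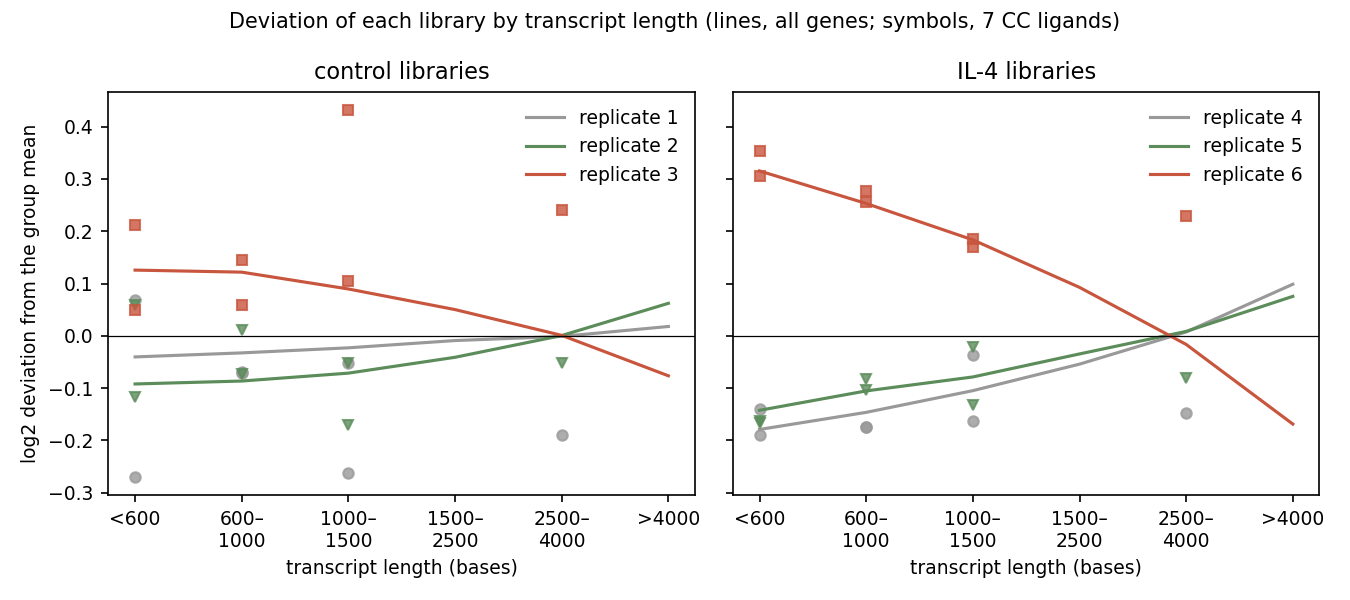
Log2 deviation of each library from its group mean by transcript length in bases, with lines for the median over genes with a mean of at least 100 normalised counts and symbols for Ccl2, Ccl6, Ccl7, Ccl8, Ccl9, Ccl11 and Ccl12. The line of IL-4 replicate 6 goes from 0.32 for the shortest to -0.17 for the longest transcripts, and all 7 ligands lie above 0 in that library.

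Without both libraries, the log2 fold changes were 7.29 for Ccl11, 4.18 for Ccl8, 3.29 for Ccl6, 1.73 for Ccl9, 1.49 for Ccl7, 1.39 for Ccl12 and 0.69 for Ccl2. The 7 ligands called, Ccl24 among them and Ccl2 not, were the same as with all libraries. With offsets fitted to transcript length, which scale each library separately for short and long transcripts, the values were 7.02, 4.18, 3.25, 1.74, 1.44, 1.28 and 0.66 in that order, and the 7 calls were again the same. The part of transcript length or RNA quality in the spread between libraries was not tested.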

How the data were processed

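mRNA-seq was carried out on 3 control and 3 IL-4 libraries, with 28526782 to 29057787 expected counts each, which sets the precision of low genes, and intervals cover counting error only. Reads were cleaned with SOAPnuke by the authors and mapped to mm10 with HISAT, and for gene levels they used Bowtie2 and RSEM, whose expected counts (not normalized) and FPKM (scaled by transcript length and library size) were deposited per gene. The annotation that the counts follow is not given in the sources used here. Genes not listed for a library were taken as 0, and a row with no gene name, at most 0.000225% of counts, was left out. The small RNA libraries were not used here.

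After rounding, low genes were removed by filterByExpr (at least 10 counts, total of at least 15), and counts were scaled with TMM and compared by edgeR's quasi-likelihood test (edgeR 4.0.16, R 4.3.3), with Benjamini-Hochberg adjustment over the 14009 genes tested. Calls needed a log2 fold change beyond 1 at an adjusted p under 0.05. This held for counts by DESeq2 as well, while counts at an unadjusted p had no fold threshold. The floor of detection was taken as 3 counts in a library. Where every library of a group had 0 counts, a fold was given as a lower bound against this floor. Low counts above 0 were given as a ratio of summed counts. The 10 ligands were named in full, other CC ligands and CC receptors with at least 10 counts in 1 library by name, and of other lists the called genes with the 2 highest mean FPKM and the 2 largest changes, besides Il4ra, Stat6 and Socs1, and some genes of the lists are not reported here. The members and lists were chosen with earlier results of these data known, and no p was adjusted over a list alone. Alternatives were DESeq2 1.42.0, upper-quartile scaling, library totals, limma 3.58.1 on log2(FPKM + 1) or with 0.1 added, no filter, each library left out in turn, and, chosen after seeing the data, leaving out both libraries that stood apart and offsets for transcript length. Positions and promoters come from RefSeq for GRCm38.p6, the same assembly as mm10.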

Additional observations from a re-analysis of the deposited data

How the results depend on the processing

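The number of the 10 ligands called higher with IL-4 was 7 and the number called lower was 0 under all 14 alternatives, from DESeq2 to each library left out. All 8 tested ligands kept their direction and an adjusted p under 0.05. Leaving out each library in turn, the log2 fold change ranged from 0.67 to 0.89 for Ccl2, 1.28 to 1.56 for Ccl12, 1.42 to 1.67 for Ccl7, 1.61 to 1.86 for Ccl9, 3.24 to 3.42 for Ccl6, 4.16 to 4.46 for Ccl8 and 7.005 to 7.38 for Ccl11. The fitted value of Ccl24 depends on the pseudocount, down to 3.41 on log2(FPKM + 1). Library totals and limma on log2(FPKM + 1) and log2(FPKM + 0.1) moved the median of all genes to -0.17, -0.13 and -0.17, and the ligands are then to be read relative to it. Of the 20 shares of ligands in the pool, 16 moved by more than 1 SD when taken from expected counts instead of FPKM, and the leading ligands changed as given above. No paired analysis was possible because the control and IL-4 groups share no replicate numbers in the labels.

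Signs reversed for 5 genes, none of them called. The log2 fold change of Ccl5 was -0.096 with library totals, -0.044 and -0.078 on log2(FPKM + 1) and log2(FPKM + 0.1), -0.10 with length offsets and -0.31 to 0.42 with 1 library left out. For Ccl25 it was -0.059, -0.027, -0.0405 and -0.0032 in that order, -0.0044 without both libraries that stood apart, and up to 0.17 with 1 library left out. Ccr1 was at -0.059, -0.047 and -0.051 with library totals and both FPKM scales, and at 0.18 without both libraries, where its adjusted p was 0.038 but its fold was within the threshold. Ccr3 was at -0.0045 and -0.0298 on the FPKM scales, -0.25 without both libraries and -0.16 to 0.61 with 1 library left out. Ccr10 was at -0.0185 with library totals, -0.0021 on log2(FPKM + 1) and -0.088 to 0.39 with 1 library left out. The cause was not tested. Ccl20 passed the adjusted p with no filter (0.0233) and by DESeq2 (0.0216), with 0 counts in every IL-4 library. Limiting promoters to the 250 bases before the start, the STAT6 spacing was in 5.85% and the other STAT spacing in 7.02% of windows.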

Other observations

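Other lists were measured beside the ligands. Of 9 genes of the IL-4 receptor and its STAT6 path, 2 were called higher, Socs1 and Cish (log2 fold change 3.67 ± 0.08, SE), both feedback inhibitors, and 0 lower (2 at an unadjusted p under 0.05 in edgeR, 0 by DESeq2). At any fold, 4 passed the adjusted p as higher and 1 as lower, Jak3 (-0.82 ± 0.08, adjusted p = 0.000126). Of 7 dendritic cell markers, 6 were listed and 2 tested, and Itgax, the integrin chain CD11c that macrophages can also carry, went from 1.61 to 25.0 FPKM (4.13 ± 0.12), while Flt3, Xcr1 and Clec9a were too low to be tested. Of 6 endothelial markers, 6 were tested, with Vwf called higher (3.08 ± 0.15) and Cdh5 (-1.60 ± 0.13) and Tie1 (-1.16 ± 0.33) called lower, and their summed level was 11.7 to 12.5 FPKM in control and 13.5 to 16.2 FPKM in IL-4 libraries. Of the lymphocyte markers, 3 were tested, and Cd4, which macrophages can also express, was called lower (-2.33 ± 0.28), while Cd3e, Cd3g and Ncr1 were not listed. Of 6 mast cell and basophil markers, 1 had enough counts for edgeR's test and was not called, while DESeq2, run without that filter, called Tpsb2 higher (0, 0 and 0 counts in control, 5, 8 and 11 with IL-4) and Mcpt8 lower (3, 5 and 6 counts in control, 0 with IL-4), and the list summed to at most 0.92 FPKM. Of 6 markers of mature adipocytes, 3 were listed and 0 had enough counts for edgeR's test, while DESeq2 called Adipoq higher (0, 0 and 3 counts in control, 13, 9 and 10 with IL-4), at a summed level of at most 0.41 FPKM.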
